A study of Andrographis paniculata with 12 samples.

Results

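The small auxin-induced genes of Andrographis paniculata, a medicinal herb that makes diterpene lactones, were followed in leaves treated with methyl jasmonate (MeJA), a volatile ester of jasmonic acid, a plant hormone of wounding and defence. They were chosen by name: the best Swiss-Prot hit in the authors' table had to read auxin-induced protein 6B, 10A5, 15A, X10A or X15, indole-3-acetic acid-induced protein ARG7, or SAUR, and the level had to be at least 1 at 1 or more times. The name was found in 55 of 32064 assembled genes, and 52 of these were among the 29399 assembled genes that reached the level. No gene was named by the word SAUR itself. Of the 3 genes left out, the highest reached 0.767 (TR73603|c0_g1, 0 h), and the members nearest to the threshold on the other side peaked at 1.25 (TR55935|c0_g1), 2.18 (TR64266|c0_g1) and 2.23 (TR29421|c0_g1).

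Small auxin up RNAs (SAURs) are among the first transcripts to accumulate when a plant tissue meets auxin, and the transcripts are short-lived. The names used here come from soybean (6B, 10A5, 15A, X10A, X15) and mung bean (ARG7), where such transcripts were found in auxin-treated seedling tissue. In Arabidopsis, SAUR proteins of the SAUR19 type bind and inhibit D-type protein phosphatases 2C, which keeps the plasma membrane proton pump active, acidifies the cell wall and lets the cell elongate. Other SAUR proteins are known from leaf senescence and from responses to light and abscisic acid, and many have no assigned role. A name in the table states similarity to a soybean or mung bean protein and not which SAUR of Andrographis it is.

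The study sampled leaves at 0, 12, 24 and 48 h of MeJA, with 3 biological replicates labelled at each time and 12 samples in all, and sequenced strand-specific mRNA libraries. No untreated leaves at 12, 24 or 48 h were part of it, so MeJA and time since the start cannot be told apart. The labels state neither the dose of MeJA nor the hour of sampling. Had every plant been treated at the same hour, only the 12 h leaves would come from the opposite side of the day. The table holds 1 mean over the replicates for each gene and time, so every level given is the authors' mean, no value has a spread, and no test could be made. A gene is counted as lower or higher if its log2(level + 1) at the later time is at least 1 below or above, a 2-fold difference on that scale; the scale understates differences of genes at low levels. The unit of the level, whether it is corrected for transcript length, and the read depth behind it are not stated, so levels are read across times within a gene.

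The names were checked against the protein domains in the same table. A predicted protein is listed for 30 of the 52 members, and all 30 carry the Pfam domain PF02519, the auxin-inducible domain that defines SAUR proteins. The other 22 have neither a predicted protein nor a domain entry, and their identity rests on the sequence hit alone. None of the 30 with a predicted protein has a predicted transmembrane segment or signal peptide. Such predictions need a protein, so the other 22 could have none. The term auxin-activated signalling is attached to 36 of the 52 through the hit.

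Most small auxin-induced genes were at their highest in leaves at 0 h and stood far lower at all 3 later times. At 12 h, 37 of 52 (71.2%) were lower than at 0 h and 7 (13.5%) higher, where 17.7% of all 29399 genes were lower and 15% higher. At 24 h, 39 (75%) were lower and 4 higher than at 0 h, against 16.9% and 13.4% of all genes. At 48 h, 40 (76.9%) were lower and 3 higher, against 19.6% and 12.2%. The median difference of the members in log2(level + 1) was -3.65 at 12 h, -3.32 at 24 h and -3.94 at 48 h, beside 0.06, 0.01 and -0.09 over all genes. Over the 52 members, the share counted as higher was near that of all genes at 12 h and below it at 24 and 48 h. All of the higher members have a predicted protein. Among the 30 such members, the shares higher were 23.3%, 13.3% and 10%, above that of all genes at 12 h and near it at 24 h. The 3 comparisons share the leaves at 0 h, so a single low or high mean there would move all of them. The level of 1 was reached by 48 members at 0 h and by 24, 30 and 19 at the later times in order. Members that reached it at 0 h alone passed the filter through that time, which favours counts of lower genes. The shares of all genes rest on the same filter.

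The median level over the 52 members was 23.0 before treatment and 0.752, 1.48 and 0.360 at the later times in order. A level of at least 10 was reached by 35, 9, 11 and 6 members at the 4 times in order. Summed over the members, the level was 4173, 503.9, 624.4 and 366.2, or 0.482%, 0.0518%, 0.0647% and 0.0393% of the column sums; such a sum weighs genes by a level whose length correction is not known.

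The highest of the 4 levels lay at 0 h for 40 members (76.9%, against 32.9% of all genes). It lay at 12 h for 9 members (against 32.2% of all genes), at 24 h for 1 (against 19.4%) and at 48 h for 2 (against 15.5%). Every member had a level above 0 at 0 h. Listed at 0 were 8 members at 12 h (15.4%, against 2.78% of all genes), 6 at 24 h (11.5%, against 3%) and 11 at 48 h (21.2%, against 3.3%). These were not only genes of low level: among genes that reached 10 at some time, 7 of 39 members were listed at 0 at 12 h, and 77 of all 13920 genes (0.553%). All of the 7 but TR41518|c0_g1 reached 10 at 0 h alone, so they passed this filter through the time where they are high. Likewise, members such as TR17401|c0_g1 reached the level of 1 at 0 h alone. They could only be highest there and could not be counted as higher later. The shares of all genes rest on the same filters.

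**Figure D1:**
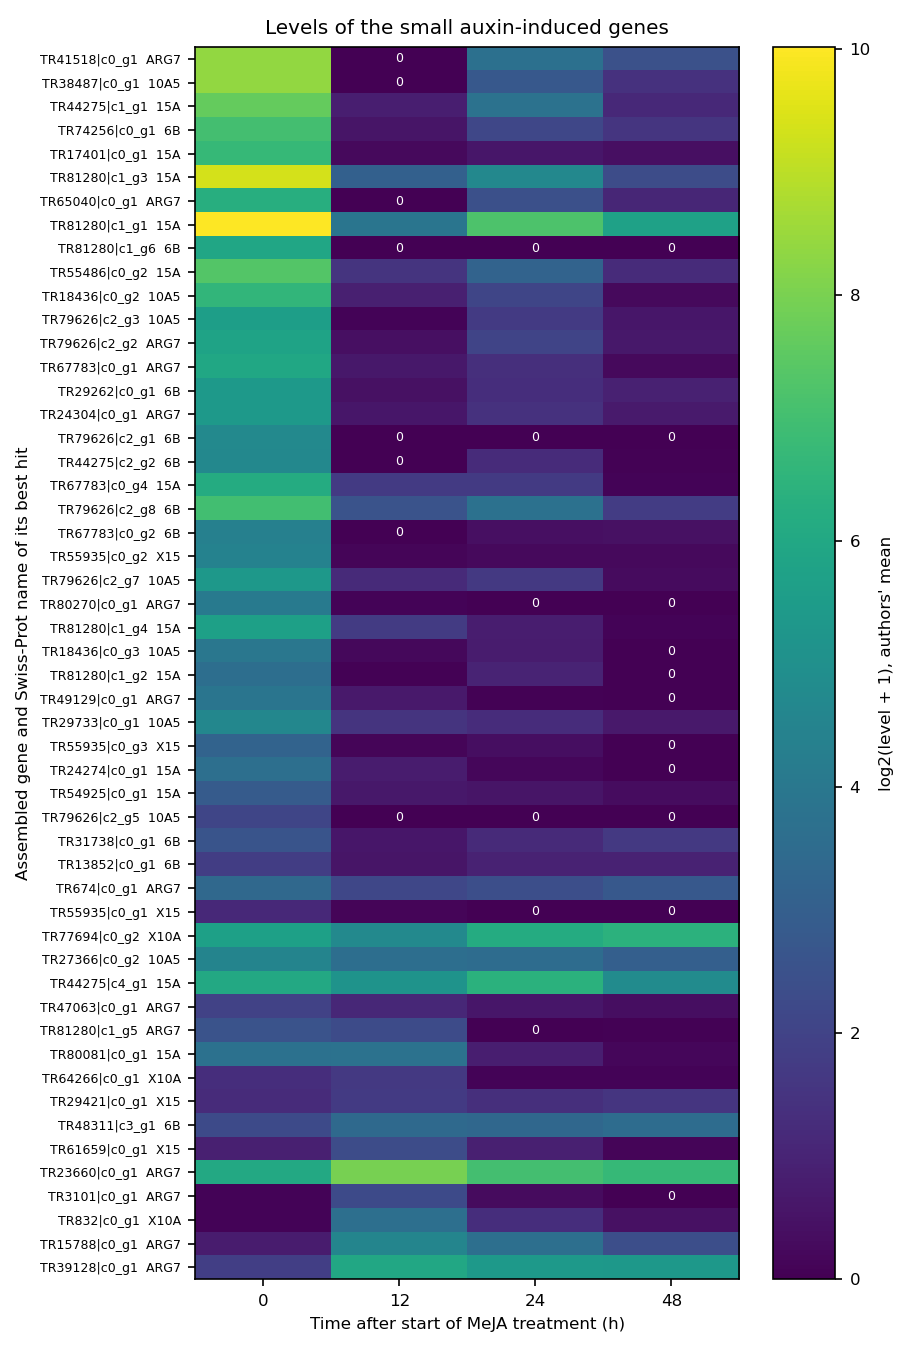
Colour gives log2(level + 1), the authors' mean, for each of the 52 small auxin-induced genes (rows, with the name of the Swiss-Prot hit) at 0, 12, 24 and 48 h (columns), ordered by the difference between 12 h and 0 h; a white 0 marks a gene listed at 0. In 37 rows the cell at 12 h is lower than that at 0 h by 2-fold or more, and some of these rows are dim already at 0 h. The 7 rows at the bottom are brighter at 12 h by as much.

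**Figure D2:**
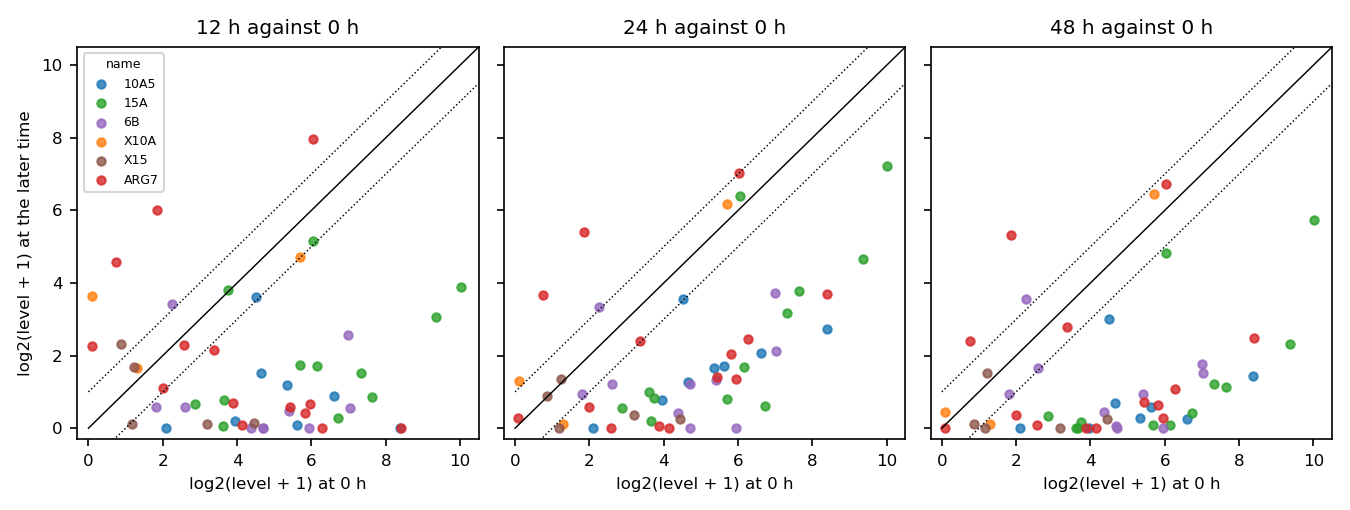
Each point is 1 of the 52 genes, with log2(level + 1) at 0 h on the x axis and at 12, 24 or 48 h on the y axis of the 3 panels, coloured by name; the solid line marks equal levels and the dotted lines a 2-fold difference. Points under the lower dotted line number 37, 39 and 40, and those above the upper one 7, 4 and 3.

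The genes named auxin-induced protein 15A held the highest levels at 0 h. All 12 were lower at 48 h than at 0 h, 11 were lower at 24 h and 10 at 12 h, with medians of -4.20, -3.66 and -4.94 at 12, 24 and 48 h. TR81280|c1_g1 stood at 1033, 13.8, 149.6 and 52.6 at 0, 12, 24 and 48 h, a difference from 0 h of -6.12, -2.78 and -4.27. It was the most abundant member at 0 h and made up 24.8% of the summed level there. TR81280|c1_g3 stood at 658, 7.42, 24.3 and 4.03, and its difference of -7.03 at 48 h was the most negative of the 52 at that time. TR44275|c1_g1 stood at 198.6, 0.801, 12.8 and 1.21, and TR55486|c0_g2 at 159, 1.85, 8.07 and 1.34. These 4 genes share an order: highest at 0 h, next at 24 h, and lowest at 12 or 48 h. TR17401|c0_g1 differed from them in staying under 1 at all later times, at 104.7, 0.204, 0.526 and 0.331.

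A pair of 15A genes departed from that course at 12 h. TR44275|c4_g1 stood at 64.8, 34.5, 83.3 and 27.4, and was within 2-fold of 0 h at 12 and 24 h (-0.89 and 0.36). TR80081|c0_g1 was level at 0 and 12 h, 12.4 and 12.9, and then stood at 0.789 and 0.120, the most negative difference of any member from 12 to 24 h (-2.95).

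The genes named 10A5 and 6B were lower almost throughout. Of 8 genes named 10A5, 7 were lower at 12 h, 7 at 24 h and 8 at 48 h, and none was higher; the medians were -3.95, -3.53 and -4.49. TR38487|c0_g1, 334 at 0 h and listed at 0 at 12 h, was 5.70 at 24 h and 1.69 at 48 h. TR18436|c0_g2 stood at 96.4, 0.848, 3.24 and 0.196. TR27366|c0_g2 kept the most of its level, at 21.8, 11.1, 10.8 and 7.07, and was counted as lower at 48 h alone (-1.50).

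Of 10 genes named 6B, 9 were lower at 12 h, 8 at 24 h and 7 at 48 h, and 1 was higher at all 3 times; the medians were -4.56, -3.71 and -4.55. TR74256|c0_g1 stood at 129.6, 0.471, 3.36 and 1.89, and TR79626|c2_g8 at 126, 4.91, 12.3 and 2.42. TR81280|c1_g6 had 60.6 at 0 h and was listed at 0 at 12, 24 and 48 h. A member listed at 0 at all 3 later times was found 3 times in all, the others being TR79626|c2_g1 and TR79626|c2_g5. The 6B gene on the other side was TR48311|c3_g1, at 3.78, 9.77, 9.09 and 10.7. TR31738|c0_g1 was 5.07 at 0 h and then 0.504, 1.31 and 2.15, the member with the most positive difference from 24 to 48 h (0.44).

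The genes named ARG7 were split. Of 14, 8 were lower and 4 higher at 12 h, 9 lower and 2 higher at 24 h, and 9 lower and 2 higher at 48 h, with medians of -2.20, -3.17 and -3.19. TR41518|c0_g1 followed the common course: 336 at 0 h, listed at 0 at 12 h, 11.9 at 24 h and 4.64 at 48 h. TR65040|c0_g1 did likewise, at 76.2, 0, 4.47 and 1.12. TR39128|c0_g1 was on the other side, at 2.61, 63.2, 41.0 and 39.0, with the most positive difference of any member at each time (4.15, 3.54 and 3.47). TR15788|c0_g1 stood at 0.679, 22.8, 11.6 and 4.25, also higher at all 3 times.

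TR23660|c0_g1, another ARG7 gene, stood at 64.5, 248.7, 128.5 and 104.2 over the 4 times. It was higher at 12 h (1.93) and just under 2-fold at 24 h (0.98). At 12 h it alone made up 49.3% of the summed level of the 52, where it had been 1.55% at 0 h. TR3101|c0_g1 was seen almost at 12 h alone, at 0.0597, 3.80, 0.213 and 0. TR674|c0_g1 was lower at 12 h (9.33 to 3.43) and within 2-fold of 0 h at 24 and 48 h, at 4.24 and 5.85.

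The 8 genes named X10A and X15 were few and mostly of low level. Of 3 named X10A, TR77694|c0_g2 was the abundant one, at 50.9, 25.5, 70.8 and 85.7, within 2-fold of 0 h at each time (-0.97, 0.47 and 0.74). By 48 h it held 23.4% of the summed level of the 52. TR832|c0_g1 stood at 0.0660, 11.5, 1.45 and 0.361, highest at 12 h. Of 5 named X15, 3 were lower at each later time, all of them related sequences from 1 assembly component (TR55935|c0). TR61659|c0_g1 was higher at 12 h, at 0.827, 3.98, 0.833 and 0.0883. TR29421|c0_g1, which hardly moved, stood at 1.34, 2.23, 1.55 and 1.89; it and TR77694|c0_g2 were the 2 members within 2-fold in all 3 comparisons with 0 h.

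Between the later times the differences were smaller. From 12 to 24 h, 15 of 52 members (28.8%) were higher and 6 (11.5%) lower, against 10.6% and 11.1% of all genes. From 24 to 48 h, 17 (32.7%) were lower and none higher, against 4.5% and 2.36% of all genes. A level at 24 h above that at 12 h, of any size, was found in 28 of 52 members (53.8%) and in 46.7% of all genes, and a level at 48 h below that at 24 h in 40 members (76.9%) and in 61.4% of all genes. Of the 37 members that were lower at 12 h, 26 had a higher level at 24 h than at 12 h, 13 of them by 2-fold or more; these 37 were picked for a low value at 12 h, which by itself favours a higher next value. None of the 37 was back at its level at 0 h at 24 or 48 h, but the same choice favours a high value at 0 h and so lower values later. As a share of the level at 0 h, their median was 0.958%, 3.64% and 0.607% at the 3 later times, and the highest was 36.8%, 45.5% and 62.8%. The difference in log2(level + 1) from 12 to 24 h was greatest in TR41518|c0_g1 (3.69), TR81280|c1_g1 (3.34) and TR44275|c1_g1 (2.93).

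**Figure D3:**
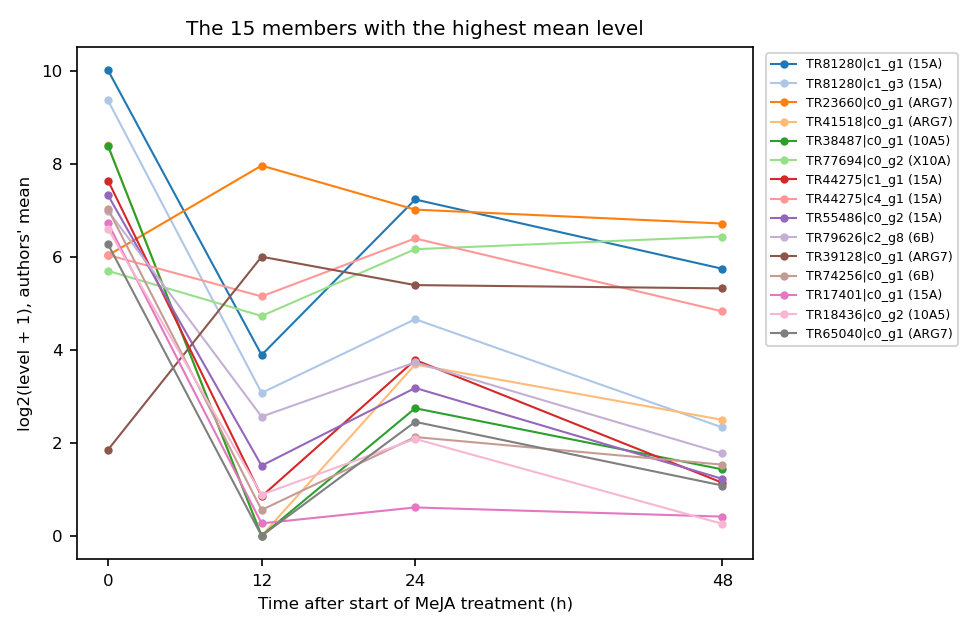
Lines join log2(level + 1), the authors' means, at 0, 12, 24 and 48 h for the 15 members with the highest mean level. Most lines are far lower at 12 h than at 0 h, somewhat higher at 24 h and lower again at 48 h, while TR39128|c0_g1 and TR23660|c0_g1 lie above their level at 0 h at all later times.

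Of the 15 members higher at 24 h than at 12 h, 11 were abundant genes without a predicted protein. Among the 13 members without a predicted protein and with a mean level of at least 10, these 11 were higher at 24 h and 11 were lower at 48 h than at 24 h. Among the 12 members with a predicted protein and the same mean level, 3 were higher at 24 h, among them TR81280|c1_g1 and TR55486|c0_g2 (3.34 and 1.67), and 4 lower at 48 h. In all, 12 of 22 members without and 3 of 30 with a predicted protein were higher at 24 h than at 12 h, beside 10.6% of all genes. The members without a predicted protein were also more one-sided against 0 h: 20, 21 and 21 of 22 were lower at 12, 24 and 48 h and none higher, with medians of -4.70, -3.81 and -5.04. Those with the domain had 17, 18 and 19 of 30 lower and 7, 4 and 3 higher, with medians of -1.22, -2.59 and -2.84. All 8 members listed at 0 at 12 h lacked a predicted protein. All 7 members higher at 12 h carried the domain.

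Several members come from the same assembly component, a cluster of related assembled sequences among which reads can be shared, so they are not independent genes. The 52 fall into 37 components, and 5 components hold more than 1 member, 20 members in all. Of those 20, 19 were lower at 12 h, 20 at 24 h and 20 at 48 h, and none was higher. Of the 32 members that are alone in their component, 18, 19 and 20 were lower and 7, 4 and 3 higher. The 6 members of TR81280|c1 summed to 1819, 27.5, 175.6 and 56.8 at 0, 12, 24 and 48 h. The 6 of TR79626|c2 summed to 297.8, 6.59, 19.9 and 3.70. Both sums were lower at all 3 later times, with 24 h above 12 and 48 h, which is the order of their most abundant pieces. With the members of each component summed, 23, 24 and 25 of 37 (62.2%, 64.9% and 67.6%) were lower. In the same order, 7, 4 and 3 (18.9%, 10.8% and 8.11%) were higher.

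**Figure D4:**
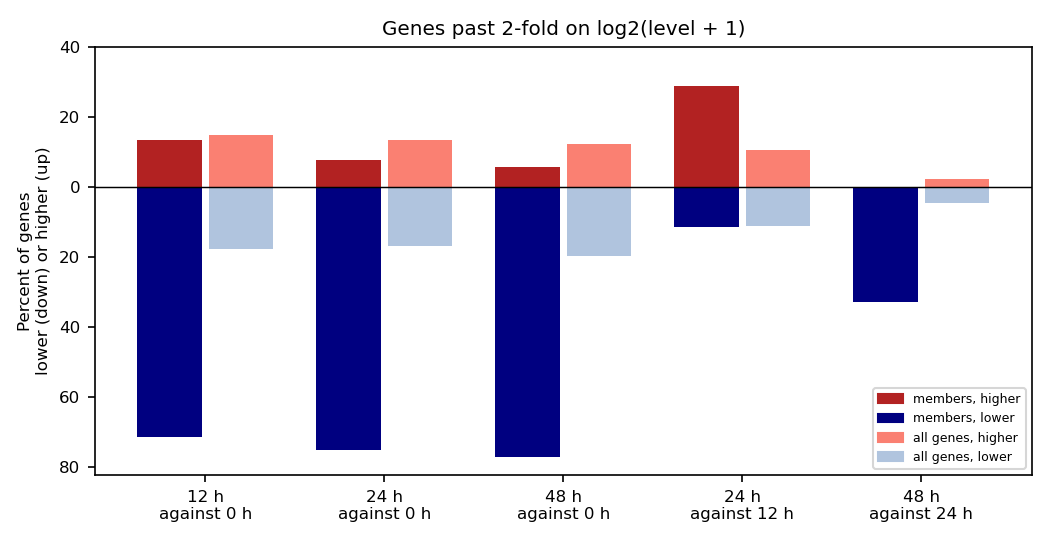
Bars give the percent of the 52 small auxin-induced genes (dark) and of all 29399 genes (pale) that were higher (upward) or lower (downward) by 2-fold or more on log2(level + 1) in 5 comparisons of times. Against 0 h the downward bars reach 71.2%, 75% and 76.9%; from 12 to 24 h 28.8% were higher, and from 24 to 48 h 32.7% lower.

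The genes that act before SAURs in auxin signalling were compared by lists of names, and the most abundant or most different gene of a list is given. Each count is to be read beside the shares of all genes given above: 17.7%, 16.9% and 19.6% lower and 15%, 13.4% and 12.2% higher at 12, 24 and 48 h. Auxin is sensed by TIR1-type receptors, which mark Aux/IAA repressors for destruction and so free the auxin response factors that switch on SAUR genes. Of 4 receptor genes, 1 was lower at 12 h and none at 24 or 48 h; the most abundant, TR40904|c0_g3, stood at 63.3, 32.3, 40.4 and 33.8. Of 34 Aux/IAA genes, many of which are auxin-induced themselves, 26, 21 and 25 were lower at 12, 24 and 48 h (76.5%, 61.8% and 73.5%) and 2, 1 and 0 higher, with medians of -1.74, -1.13 and -1.63. An IAA14-like gene (TR32361|c7_g1) stood at 1186, 52.8, 198.1 and 112.6, the order of times seen in TR81280|c1_g1. An IAA16-like gene (TR43755|c2_g2) stood at 183, 2.40, 112 and 70.8.

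Of 35 response factors, 11, 5 and 10 were lower (31.4%, 14.3% and 28.6%) and 6, 7 and 5 higher (17.1%, 20% and 14.3%), with medians of -0.27, -0.22 and -0.43. The most abundant, ARF2-like TR84196|c2_g2, was level at 69.0, 74.2, 73.4 and 68.5. ARF5-like TR63249|c3_g2 stood at 1.16, 15.3, 2.37 and 4.05.

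GH3 enzymes join auxin or jasmonate to amino acids and several are auxin-induced; of 3 GH3 genes, 2, 1 and 2 were higher at 12, 24 and 48 h and 0, 0 and 1 lower. GH3.5-like TR39910|c0_g1 stood at 26.1, 30.3, 44.2 and 68.7, and GH3.9-like TR75754|c1_g1 at 0.501, 14.7, 12.5 and 5.14. Among 11 genes of auxin synthesis, 2 were lower at each time (18.2%, near the share of all genes) and 1, 3 and 3 higher. A gene named tryptophan aminotransferase-related protein 4 (TR82848|c2_g3) stood at 112, 199, 286 and 495. Its family holds the enzymes of the first step of that route, but the name does not show that this gene acts in it. A YUCCA6-like gene, of the second step (TR83251|c0_g3), stood at 9.14, 2.08, 3.91 and 3.97.

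The list of auxin transport genes held 18, of which 6, 5 and 7 were lower (33.3%, 27.8% and 38.9%) and 2, 0 and 0 higher. Hits to WAT1, a vacuolar transporter, make up 6 of the 18. Among the other 12, 5, 4 and 7 were lower (41.7%, 33.3% and 58.3%) and 1, 0 and 0 higher. This split was made after the values were seen. The efflux carrier PIN3-like TR26927|c6_g3 stood at 132, 22.3, 67.5 and 31.3. An influx carrier-like gene (TR26927|c5_g5) stood at 177, 16.6, 31.4 and 15.4.

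The phosphatases and proton pumps through which SAUR proteins are known to act in Arabidopsis were taken next, together with lists of cell wall genes. Of 103 genes named protein phosphatase 2C, a family in which the D type is a minority that the names do not mark, 10, 8 and 11 were lower (9.71%, 7.77% and 10.7%, under the share of all genes) and 16, 14 and 11 higher (15.5%, 13.6% and 10.7%, near it). The most abundant, TR35861|c0_g1, stood at 142, 138, 222 and 210. Of 10 plasma membrane proton pump genes (7 calcium pumps that the name pattern also took are left out), 1 was lower at each time and 1, 2 and 2 higher, too few genes to set against the shares of all genes; the medians were -0.77, -0.06 and -0.11. Expansins loosen the wall at acid pH, and 17, 23 and 27 of 34 were lower (50.0%, 67.6% and 79.4%), with 2, 1 and 2 higher; the medians were -1.03, -1.53 and -1.83. From 12 to 24 h, the median of the expansins was -0.53, and 3 were higher and 10 lower. Expansin-A8-like TR86988|c3_g1, 1 of the 3, stood at 1000, 79.1, 251 and 14.1. Xyloglucan endotransglucosylases, which cut and rejoin wall polymers, were lower in 10, 10 and 11 of 14 genes (71.4%, 71.4% and 78.6%) and higher in 1, 0 and 1, with medians of -3.09, -3.41 and -3.16. XTH23-like TR46569|c0_g1 stood at 923, 65.5, 29.1 and 12.2.

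Genes of other growth hormones were also counted. Brassinosteroid signalling genes were lower in 6, 5 and 6 of 19 (31.6%, 26.3% and 31.6%) and higher in 2 at each time, with medians of -0.70, -0.48 and -0.41. Gibberellin genes were lower in 9, 8 and 8 of 20 (45.0%, 40.0% and 40.0%) and higher in 3, 3 and 5 (15%, 15% and 25%), with medians of -0.88, -0.59 and -0.55. GA20 oxidase-like TR78431|c1_g1 stood at 27.8, 0.863, 0.658 and 6.78, and the receptor-like GID1B gene TR59148|c2_g2 at 8.09, 59.2, 82.9 and 91.3. Phytochrome interacting factors, light-regulated factors that in Arabidopsis switch on SAUR genes, were lower in 3 of 4 at 12 h and in none at 24 or 48 h.

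**Figure D5:**
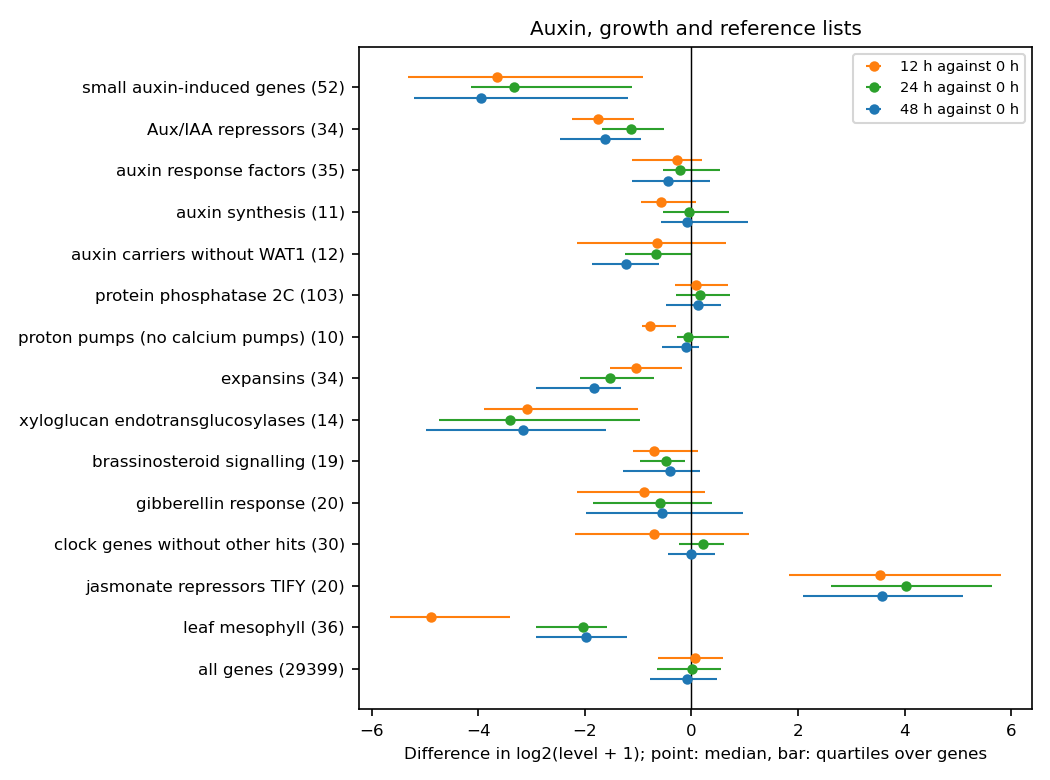
Points give the median and bars the quartiles over genes of the difference in log2(level + 1) from 0 h at 12, 24 and 48 h, for the small auxin-induced genes, for the lists described beside it and for all 29399 genes; the number of genes stands in parentheses. The small auxin-induced genes (-3.65, -3.32 and -3.94) and the xyloglucan endotransglucosylases (-3.09, -3.41 and -3.16) lie far to the left at all 3 times, the leaf mesophyll markers most of all at 12 h (-4.89).

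Lists of jasmonate response, clock and cell type marker genes were read in the same samples. The TIFY repressors, the standard early targets of jasmonate, were higher in 17, 18 and 17 of 20 at 12, 24 and 48 h, and TIFY10A-like TR47119|c4_g4 stood at 9.70, 911, 1311 and 992. Of 30 clock genes (6 other genes that the name pattern also took are left out), 11 were lower and 8 higher at 12 h (36.7% and 26.7%), 0 and 4 at 24 h (0% and 13.3%) and 1 and 4 at 48 h (3.33% and 13.3%). LHY, the morning gene, was 383 at 0 h and 0.700 at 12 h, and 494 and 475 at 24 and 48 h (TR49676|c1_g3). The part of time of day in the levels of the SAUR genes was not tested.

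Leaf mesophyll markers (Rubisco small chain, Rubisco activase and chlorophyll a-b binding proteins) were abundant at 0 h, as the tissue label asks, and then lower: 34, 29 and 28 of 36 genes (94.4%, 80.6% and 77.8%), with none higher and a summed level of 64603, 3809, 18700 and 23318. Their medians were -4.89, -2.04 and -1.98, nearer to 0 at 24 and 48 h than at 12 h; those of the SAUR genes were -3.65, -3.32 and -3.94. Epidermis markers were lower in 16, 20 and 19 of 46 (34.8%, 43.5% and 41.3%) and higher in 7, 9 and 10 (15.2%, 19.6% and 21.7%). Guard cell markers, of which 14 of 35 are hits to 1 protease, were lower in 19, 19 and 18 (54.3%, 54.3% and 51.4%) and higher in 4, 1 and 2. The 14 protease hits were lower in 12, 11 and 11 (85.7%, 78.6% and 78.6%) and higher in 0, 0 and 1. They thus hold most of the guard cell markers counted as lower. Markers of dividing cells, of which 9 of 18 are histone H4 hits, were lower in 2, 4 and 6 (11.1%, 22.2% and 33.3%) and higher in 1, 1 and 0. Vascular markers, 4 genes, had 2 higher and none lower at 12 h. The only flower marker found, GLOBOSA, stayed between 1.65 and 2.52, and of the root list 8 of 12 genes are hits to ROOT HAIR DEFECTIVE 3, a widely expressed GTPase; of the other 4, none was lower and 1 higher at each time. In bulk leaf RNA, fewer cells of a type and less RNA per cell cannot be told apart, and the part of these markers in the SAUR levels was not tested.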

How the data were processed

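Leaf RNA of 12 samples, 3 labelled replicates at each of 4 times, was sequenced. The authors deposited 1 table in which each assembled gene has 4 values of expression signal, 1 for each time, per the file headers. Every one of the 128256 values is a multiple of 0.001/3 (tolerance 0.001 of that step), as means of 3 values with 3 decimals would be. Column sums were 866243 (0 h), 973347 (12 h), 965390 (24 h) and 932776 (48 h). RSEM 1.2.19, Trimmomatic 0.33, FastQC 0.11.3 and CASAVA are named in the submitters' processing notes. The assembler, the reference, the roles of these tools and the unit of the deposited signal are each not given in the sources used here. That signal holds no counts, so its depth and counting error are unknown. Another line of the table was emptied for this work.

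The planned tests per library (edgeR or limma) were not used, since the table gives 1 mean per time. Counts by size took their place: a difference of 1 or more in log2(level + 1), with a pseudocount of 1, among genes whose highest level was 1 or more. Scripts ran in Python 3.11.15 with numpy 2.4.6, pandas 2.3.3 and matplotlib 3.10.9, and were tested on simulated data.

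Members and gene lists were chosen by name patterns with earlier results of these data known. Named members were the 15 with the highest mean level, the 4 most different each way from 0 h at each time, the 3 most different each way between later times, and those nearest the level threshold. Of each list, the most abundant gene and the one most different at 12 h were eligible. Members named beyond these, and the lists with some hits set apart (calcium pumps, WAT1, ROOT HAIR DEFECTIVE 3, and POLLUX, YUCCA10 and a chromatin remodeller among the clock genes), were chosen after their values were seen. No coordinates or sequences are given, since those of the assembled genes were not used here.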

Additional observations from a re-analysis of the deposited data

How the results depend on the processing

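The 5 counts each way and the medians of the members, 15 results, were recomputed under 13 alternatives, 9 planned and 4 added after seeing the data. Of 130 recomputed counts, 103 were within 1.5 times the reported one, and 2 of 65 recomputed medians changed sign. From 12 to 24 h the median was 0.24 by the name, -0.11 by the domain PF02519 and -0.10 with a predicted protein. Part of the 103 could not differ from the reported count. Dropping the word SAUR from the rule, or adding names from TrEMBL, another protein database, left the same 52 members, so all results repeated. Without the level filter 55 genes were read, but a gene under 1 at all times cannot be counted as lower or higher. The counts under these settings therefore do not show how stable the reported counts are. No paired analysis was possible because the table gives 1 mean per time; for the same reason leaving out each replicate and the replicate block were not run. With a pseudocount of 0.1, 10 members were lower and 24 higher from 12 to 24 h, and 28 lower from 24 to 48 h. Among the 39 members that reached a level of 10, 2 were lower from 12 to 24 h. At 3-fold, 2 were higher at 24 h than at 0 h, 9 higher from 12 to 24 h and 6 lower from 24 to 48 h.

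The added alternatives changed which genes were counted. By the domain PF02519 in place of the name, 20, 21 and 23 of 36 genes (55.6%, 58.3% and 63.9%) were lower than at 0 h at 12, 24 and 48 h. In the same order, 9, 4 and 3 (25%, 11.1% and 8.33%) were higher, against 15%, 13.4% and 12.2% of all genes. From 12 to 24 h 3 were higher, and from 24 to 48 h 6 were lower. With a predicted protein, 17, 18 and 19 of 30 were lower and 7, 4 and 3 higher than at 0 h. Of these 30, 3 were higher from 12 to 24 h and 5 lower from 24 to 48 h. Without one, 20, 21 and 21 of 22 were lower and 0, 0 and 0 higher, and 1 was lower from 12 to 24 h. With all members of 1 component summed, 23, 24 and 25 of 37 were lower and 7, 4 and 3 higher. These counts rest on fewer genes by construction.

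Scaling to a common column sum moved the median of all genes at 24 h from 0.01 to -0.10 and at 12 h from 0.06 to -0.06; 40 members were then lower at 12 h, and 7 higher. The means carry no error, so differences near 2-fold cannot be set against the variation between plants.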

Other observations

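Genes with the SAUR domain that the names missed were looked at after their values were seen. Of 39 assembled genes with PF02519, 7 have no name in the rule, and 6 of these reached a level of 1; 3 of the 6 were lower and 2 higher at 12 h than at 0 h. TR40156|c0_g2 stood at 16.5, 0.210, 0 and 0.220 at 0, 12, 24 and 48 h, and TR64386|c1_g2 at 13.3, 0.0397, 0 and 0.168. TR63754|c0_g1 stood at 4.42, 0.0930, 0.262 and 0.552. Like most named members, these 3 stood far lower at all later times than at 0 h. Unlike most of them, they were slightly higher at 48 h than at 24 h, but all of these values were under 1 and carry no error.

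TR12567|c0_g1 was listed at 0 at 0 h and stood at 67.6, 0.451 and 0.0453 at 12, 24 and 48 h. Its nucleotide hit is YSL3, a transporter of metal complexes with nicotianamine, and its protein hit is auxin-induced protein X10A, so the rule, which reads the nucleotide hit first, left it out. No member had so brief a peak at such a level; TR832|c0_g1, at 11.5, was the nearest. TR85328|c0_g1 was also highest at 12 h, at 2.86, 7.17, 3.49 and 0.780, as was TR27384|c0_g1, at 0.316, 1.53, 0 and 0.

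TR44275|c3_g2, which has no database hit, shares an assembly number with 3 members and stood at 1382, 147.9, 141.9 and 23.6, above every member at 0 h. Whether it is part of a SAUR transcript was not tested.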
